A study of Arabidopsis thaliana with 18 samples.

Results

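The entries described are the 41 rows, of 19858 in the deposited RNA table, whose identifier ends in a dot and a number. The reference gene table of assembly TAIR10.1 matched all 41 and types 39 of them as pseudogenes and 2 as protein coding. Its symbols place 6 in the MUSTANG family and 4 among the Sadhu retrotransposons, call 1 CYTOSLEEPER, and give the other 30 no family. The label of transposon-type entries therefore rests on a symbol for 11 entries, and the others are named by identifier only. RNA came from 10-day-old whole seedlings of Arabidopsis thaliana, ecotype C24, of the pold2 mutant and of wild type (WT), which were untreated and grew on medium with 20 g/L sucrose, in 23 h of daily light and at 22°C. POLD2 encodes the regulatory subunit of the replicative DNA polymerase delta, and the labels do not name the pold2 allele. Each genotype had 3 RNA libraries, and the authors' FPKM (fragments per kilobase of transcript, scaled to the mapped fragments of a library) is 1 pooled value per genotype, so no value below has an SD or n. The chromatin data are the WT peak lists of H3K27me3, H3K4me3 and H3K9me2, each from 1 library. The build is TAIR10, that of ecotype Columbia.

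Plants keep most transposons silent with DNA methylation and H3K9me2. The DNA methylation depends on the methyltransferases MET1, CMT2 and CMT3, the chromatin remodeller DDM1 and the RNA-directed pathway. H3K4me3 marks the start of transcribed genes, and H3K27me3 is the mark of Polycomb repression. MUSTANG genes are descended from the transposases of Mutator-like elements and were kept as plant genes. Sadhu elements are non-coding retrotransposons whose silencing varies among Arabidopsis accessions.

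In seedlings, green tissue markers were the most abundant of the marker lists, at 2883 to 16515 FPKM in pold2 and 4309 to 16839 FPKM in WT, with 3 of 4 lower in pold2 at the authors' q under 0.05. Of 4 root markers 2 were higher by q in the authors' deposited table, IRT1 (1.44-fold) and RHD2 (1.35-fold), and so was the meristem gene STM, at 4.57 FPKM in pold2 and 2.65 FPKM in WT. The part of tissue makeup in the values below was not tested. Of the other markers, 0 of 4 pollen and 0 of 3 endosperm markers had a row. POLD2 (AT2G42120) stood at 2.83 FPKM in pold2 and 7.21 FPKM in WT (q = 0.00103 in the authors' deposited table). The read depth is unknown. The labels do not say whether the libraries came from separate cultures, so the q values may measure technical spread. In whole seedlings, fewer cells of a type and less RNA per cell cannot be told apart.

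The 41 entries were expressed at low levels in both genotypes. Their median was 2.23 FPKM in pold2 and 2.27 FPKM in WT, against 12.1 FPKM in both genotypes over all rows. Of the 41, 33 were under 10 FPKM and 10 under 1 FPKM in both genotypes. Every row of the table reaches at least 0.501 FPKM in a genotype, so silent entries have no row. Through that floor 2 entries, AT1G62890.1 and AT3G50625.1, are listed by their pold2 value alone. Another 4, AT1G42110.1, AT1G73445.1, AT3G42090.1 and AT4G20730.1, are listed by their WT value alone. These entries had to differ between the genotypes, in a direction that the listing fixed.

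Of the 41 entries, 3 rose and 0 fell in pold2 at a q under 0.05 in the authors' deposited table, against 5.97% higher, 6.47% lower and 12.4% in either direction over all rows. The 3 called are 7.32% of the entries. Of the 5410 rows with a mean under 5 FPKM 12.5% were called, and there higher calls outnumbered lower ones, at 9.32% and 3.22%. The median log2 ratio, pold2 over WT, was 0.08 over the entries and -0.01 over all rows. Of the entries, 23 (56.1%) stayed within 0.25 of 0 on that scale, against 71.1% of all rows. The 5410 rows with a mean under 5 FPKM had a median of 0.08, and 2753 of them stayed within 0.25 of 0. Such a mean was found for 31 of the 41 entries, of which 15 stayed within 0.25 of 0. The same 3 were also under a q of 0.01, which 7.59% of all rows passed, and 2 of them differed by at least 2-fold, against 1.59% of all rows. By p without adjustment, 11 of the 41 (26.8%) were under 0.05 in the authors' deposited table, against 24% of all rows. Of the 41 entries, 8 had such a p with the higher value in pold2, and 3 with the lower value. Over all 19858 rows these were 2283 (11.5%) and 2481 (12.5%). Among the 8, AT3G50625.1 is listed through its pold2 value alone. Among the 3, AT1G42110.1 and AT3G42090.1 are listed through their WT value alone.

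**Figure D1:**
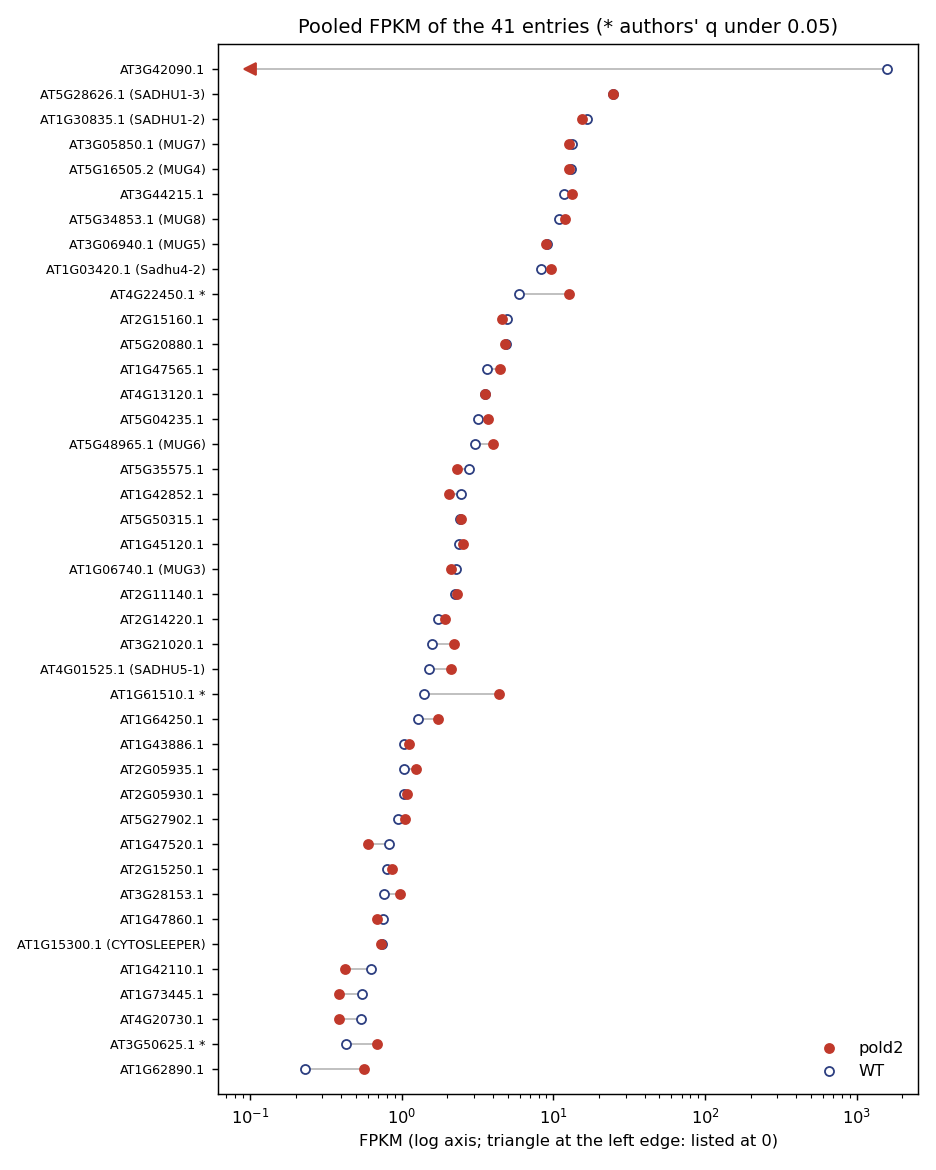
Pooled FPKM of each of the 41 entries in pold2 (filled) and WT (open) on a log axis, ordered by the WT value, with a star on the 3 entries at the authors' q under 0.05. Most pairs of points nearly coincide, the 3 starred entries have pold2 to the right of WT, and AT3G42090.1 has 1573 FPKM in WT and a triangle for its listed 0 in pold2.

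AT1G61510.1, a pseudogene on chromosome 1 (22694841 to 22697374), stood at 4.39 FPKM in pold2 and 1.41 FPKM in WT, 3.11-fold higher (q = 0.00103 in the authors' deposited table). The table has a second row for the same locus under the plain identifier AT1G61510, at 2.90 FPKM in pold2 and 1.26 FPKM in WT (2.30-fold higher, also q = 0.00103 in the authors' deposited table). Both rows moved the same way, but how reads were split between these identical loci is not given in the sources used here. The flanking rows did not rise. AT1G61500, 1959 bp before, was at 44.0 FPKM in pold2 and 50.3 FPKM in WT (q = 0.216 in the authors' deposited table). LHCA3 (AT1G61520), a light-harvesting protein gene 2340 bp after, was lower, at 2207 FPKM in pold2 and 2904 FPKM in WT (q = 0.00827 in the authors' deposited table).

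AT4G22450.1, a pseudogene on chromosome 4 (11835592 to 11837644), had the largest gain in FPKM, at 12.7 in pold2 and 5.95 in WT (2.14-fold higher, q = 0.00103 in the authors' deposited table). It has its locus to itself. The next row before it, AT4G22380, lies 22591 bp away and was lower, at 45.8 FPKM in pold2 and 58.7 FPKM in WT (q = 0.0161 in the authors' deposited table). The next row after it, AT4G22460, starts 1515 bp away and stood at 5.03 FPKM in pold2 and 5.87 FPKM in WT (q = 0.751 in the authors' deposited table).

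AT3G50625.1, a pseudogene on chromosome 3 (18791543 to 18796042), was near the floor, at 0.691 FPKM in pold2 and 0.432 FPKM in WT (1.60-fold higher, q = 0.00718 in the authors' deposited table). It is listed through its pold2 value alone. Its neighbour AT3G50620, 4628 bp before, was at 5.20 FPKM in pold2 and 5.32 FPKM in WT (q = 0.925 in the authors' deposited table). KRP2 (AT3G50630), which encodes an inhibitor of cyclin-dependent kinases and lies 4337 bp after, was higher, at 36.9 FPKM in pold2 and 29.4 FPKM in WT (q = 0.0290 in the authors' deposited table).

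The 3 entries that rose had the same pair of WT states at H3K27me3 and H3K4me3, and 1 of the 38 entries that were not called had it too. All 3 carried an H3K27me3 peak and none had an H3K4me3 peak on the locus or within 500 bp. For AT4G22450.1 this rests on the 500 bp limit, since its nearest H3K4me3 peak lay 506 bp away. That distance was 1028 bp for AT1G61510.1 and 4049 bp for AT3G50625.1. On AT1G61510.1 the H3K27me3 peak (22694707 to 22695401) covered 22.1% of the locus, and 3 H3K9me2 peaks covered 56.6%. On AT4G22450.1 the H3K27me3 peak (11836783 to 11838437) covered 42.0% and the H3K9me2 peak (11835868 to 11838038) 86.6%. On AT3G50625.1 an H3K27me3 peak (18791339 to 18795937) covered 97.7% and there was no H3K9me2 peak. These H3K27me3 peaks ranked low in their list by the authors' score, at percentile 0.640 for AT1G61510.1, 17.4 for AT3G50625.1 and 25.8 for AT4G22450.1. None of the 3 therefore has an H3K27me3 peak when only the better-scoring 50% of peaks are counted.

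**Figure D2:**
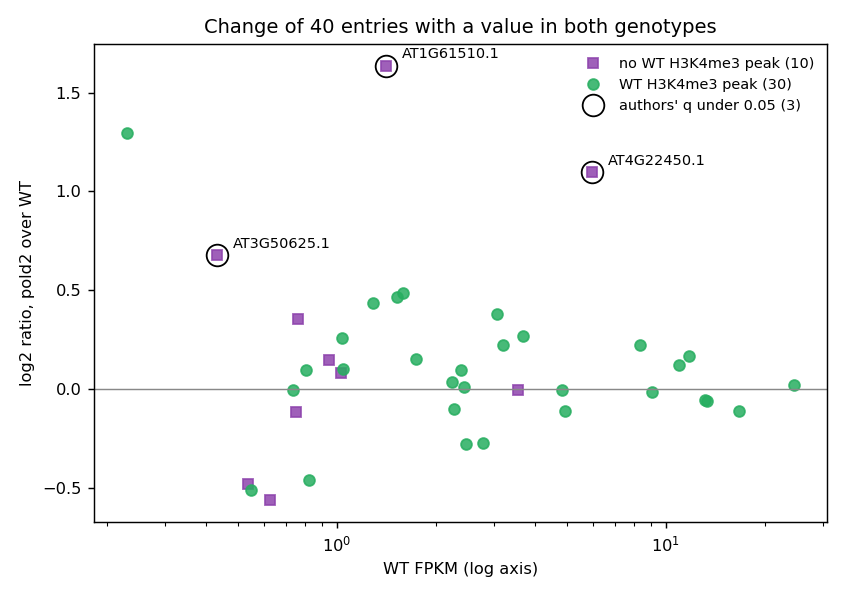
The log2 ratio of pold2 over WT for the 40 entries with a value in both genotypes, against the WT FPKM on a log axis, with squares for the 10 without a WT H3K4me3 peak and circles for the 30 with one. The 3 ringed entries at the authors' q under 0.05 are all squares, between 0.68 and 1.64.

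Of all rows with H3K27me3, 16.6% rose and 7.22% fell by q in the authors' deposited table. Of the 1513 rows with H3K27me3 and without H3K4me3, 18.4% were higher, and of the 4 entries with that pair of states 3 were higher. The fourth was AT1G47860.1, at 0.692 FPKM in pold2 and 0.752 FPKM in WT (q = 0.673 in the authors' deposited table). The pair of states was chosen after the calls were seen, and AT3G50625.1 is listed through its pold2 value alone. With 4 entries these shares are only a description. None of the 30 entries with H3K4me3 was called, against 10.9% of all rows with that mark, and 5 of those 30 had a p under 0.05 without adjustment in the authors' deposited table.

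The marks over the 41 entries differed from those over the table mainly in H3K9me2. A WT H3K9me2 peak covered part of 12 entries (29.3%), against 0.68% of all rows. The entries are 0.206% of the table and 8.89% of its 135 rows with this mark. The 46 pseudogene rows with a plain identifier had a like share, with 12 (26.1%) under H3K9me2. H3K4me3 lay on or within 500 bp of 30 entries (73.2%), against 86.4% of all rows, and H3K27me3 on 7 (17.1%), against 15.3%. On the locus alone, H3K4me3 was found for 27 entries, against 83.8% of all rows. Altogether 22 entries had H3K4me3 alone and 3 had none of the marks.

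**Figure D3:**
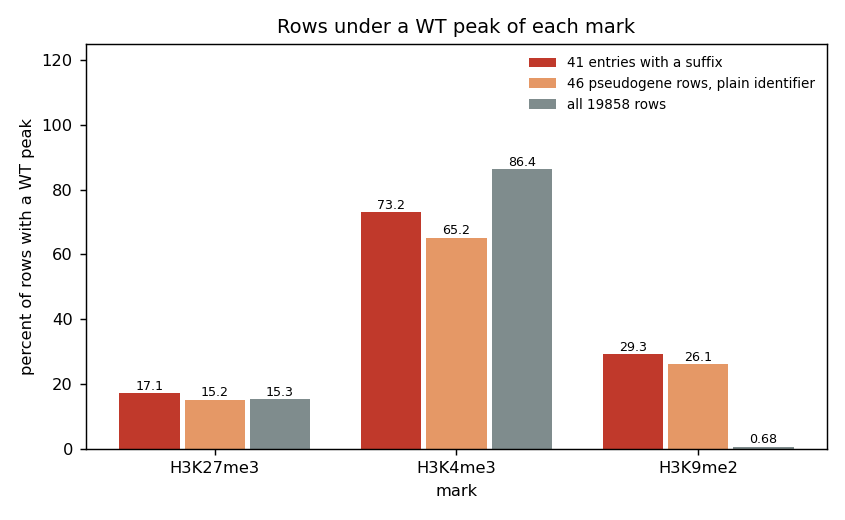
Percent of rows under a WT peak of each mark, for the 41 entries, the 46 pseudogene rows with a plain identifier and all 19858 rows. The H3K9me2 bars stand at 29.3 and 26.1% for the first pair of sets and at 0.68% for all rows, while the H3K27me3 bars are all between 15.2 and 17.1%.

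The MUSTANG genes changed little. All 6 carried H3K4me3 and none H3K9me2 or H3K27me3. None was called in either direction, against 12.4% of all rows and 10.9% of rows with H3K4me3. With 6 genes the lack of calls is only a description. MUG7 (AT3G05850.1) was at 12.8 FPKM in pold2 and 13.3 FPKM in WT, MUG4 (AT5G16505.2) at 12.6 in pold2 and 13.1 in WT, and MUG8 (AT5G34853.1) at 11.9 in pold2 and 10.98 in WT. MUG5 (AT3G06940.1) was at 8.98 FPKM in pold2 and 9.08 FPKM in WT. These 4 were the higher members of the family, with q from 0.540 to 0.958 in the authors' deposited table. MUG6 (AT5G48965.1) had the largest difference, at 3.99 FPKM in pold2 and 3.06 FPKM in WT (1.30-fold, p = 0.0494 and q = 0.206 in the authors' deposited table), and shares its locus with AT5G48970. MUG3 (AT1G06740.1) was lowest, at 2.12 FPKM in pold2 and 2.27 FPKM in WT (q = 0.939 in the authors' deposited table), in a locus merged with AT1G06760, which was itself lower at 109 FPKM in pold2 and 145 FPKM in WT (q = 0.00103 in the authors' deposited table). Peaks in the loci of MUG3 and MUG6 cannot be told from those of the partner gene. The H3K4me3 peak counted for MUG8 ended before its locus, which itself had no peak. Of 20 rows for domesticated transposase genes with a plain identifier, such as FHY3, FAR1 and DAYSLEEPER, 0 were called by q in the authors' deposited table, against 12.4% of all rows and 10.9% of rows with H3K4me3, and all 20 had H3K4me3. The median log2 ratio of the 20 was -0.03, and they include AT5G16505, the plain row of MUG4.

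The Sadhu elements held the highest pold2 level of the 41 entries. None of the 4 was called, against 12.4% of all rows, and with 4 entries this is only a description. SADHU1-3 (AT5G28626.1, chromosome 5, 10632241 to 10633944) stood at 24.9 FPKM in pold2 and 24.6 FPKM in WT (q = 0.946 in the authors' deposited table). SADHU1-2 (AT1G30835.1) was at 15.5 FPKM in pold2 and 16.7 FPKM in WT (q = 0.728 in the authors' deposited table), and its plain row AT1G30835 at 6.60 FPKM in pold2 and 8.08 FPKM in WT. Sadhu4-2 (AT1G03420.1) was at 9.72 FPKM in pold2 and 8.33 FPKM in WT (q = 0.500 in the authors' deposited table), in a locus shared with AT1G03410. SADHU5-1 (AT4G01525.1) was the lowest, at 2.103 FPKM in pold2 and 1.52 FPKM in WT (1.38-fold, q = 0.280 in the authors' deposited table). All 4 carried H3K4me3 in WT. SADHU1-3 and Sadhu4-2 also carried an H3K9me2 peak, over 20.8% and 26.5% of the locus, and SADHU5-1 an H3K27me3 peak over 95.3%. On SADHU1-3 the H3K4me3 peak (10632124 to 10632868) and the H3K9me2 peak (10633309 to 10633662) did not overlap. On Sadhu4-2 the H3K9me2 peak (846721 to 847595) lay wholly inside an H3K4me3 peak (846060 to 848846). Since AT1G03410 has the same locus, neither peak can be assigned to Sadhu4-2 alone. CYTOSLEEPER (AT1G15300.1) was at 0.736 FPKM in pold2 and 0.738 FPKM in WT, with H3K4me3 alone.

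**Figure D4:**
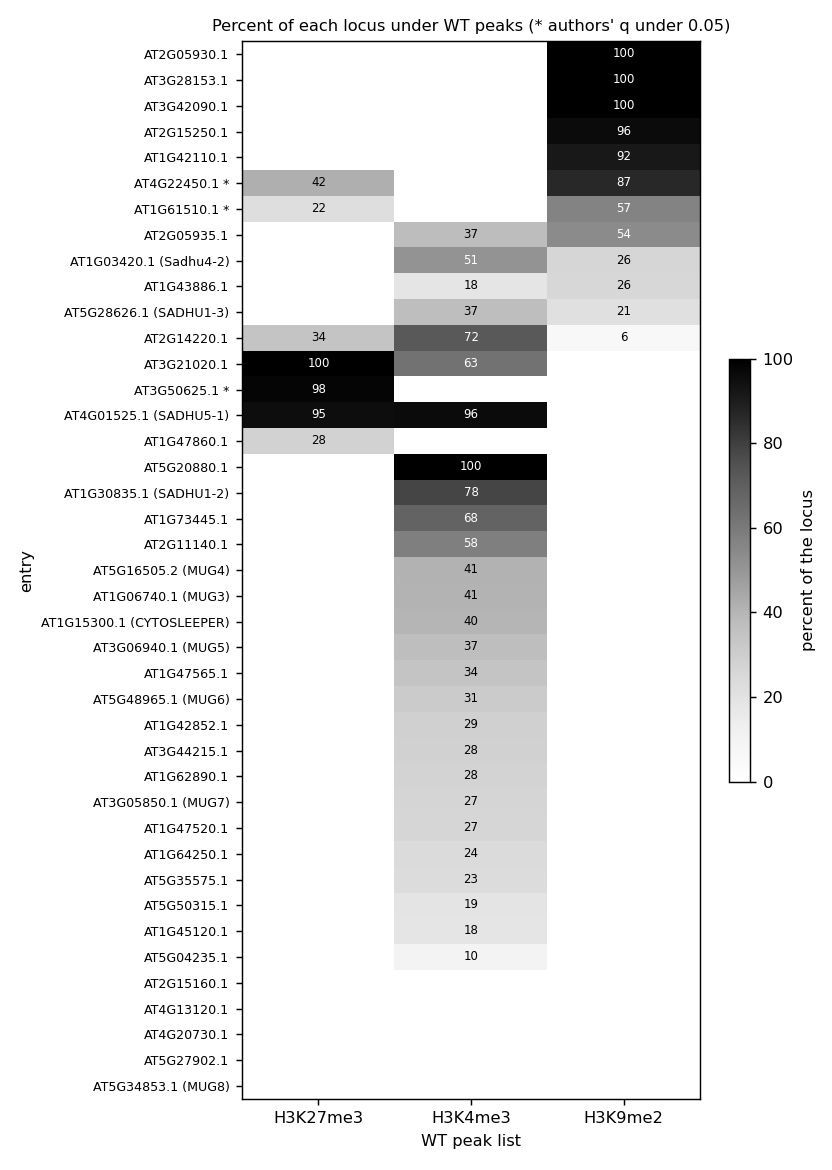
Percent of each of the 41 loci under WT peaks of H3K27me3, H3K4me3 and H3K9me2, with a star on the 3 entries at the authors' q under 0.05. The upper 12 rows carry H3K9me2, up to 100%, and the MUSTANG rows show H3K4me3 or nothing on the locus itself.

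Among the entries under H3K9me2, the mark covered at least 50% of the locus in 8. Of these 8, 3 were covered over the whole locus. AT2G05930.1 was at 1.09 FPKM in pold2 and 1.03 FPKM in WT, and AT3G28153.1 at 0.975 FPKM in pold2 and 0.761 FPKM in WT (p = 0.024 and q = 0.129 in the authors' deposited table). The other was AT3G42090.1, listed at 0 in pold2 and 1573 FPKM in WT. AT2G15250.1, 95.9% covered and with H3K4me3 peaks within 500 bp of the locus, was at 0.861 FPKM in pold2 and 0.805 FPKM in WT. AT1G42110.1, 91.7% covered, had the lowest finite ratio of the 41, at 0.423 FPKM in pold2 and 0.626 FPKM in WT (1.48-fold lower, q = 0.206 in the authors' deposited table). It is listed through its WT value alone, so it had to be lower in pold2. Of the 12 entries with the mark, 10 (83.3%) had the higher value in pold2 and 2 in WT, AT1G42110.1 and AT3G42090.1. AT3G42090.1 is also listed through its WT value alone, so the listing fixed the direction of both. Of the 123 other rows with H3K9me2, 48.0% had the higher value in pold2, and of all 41 entries 58.5% did. A log2 ratio within 0.25 of 0 was found for 6 of the 12 entries (50%), against 54.5% of the 123 other rows. By the authors' q, 2 of the 12 entries (16.7%) were called, both higher, against 23.6% of the 123 other rows in either direction. The 12 entries had a median log2 ratio of 0.13, and median levels of 1.18 FPKM in pold2 and 1.23 FPKM in WT.

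AT2G15250.1, both Sadhu elements under H3K9me2 and 3 further entries carried H3K9me2 together with H3K4me3. AT2G05935.1 starts 991 bp after the end of AT2G05930.1 on chromosome 2, and the same H3K9me2 peak (2273780 to 2280964) reaches over both. It was at 1.24 FPKM in pold2 and 1.04 FPKM in WT, with a separate H3K4me3 peak (2281086 to 2282562) in its other part. AT1G43886.1 was at 1.12 FPKM in pold2 and 1.04 FPKM in WT. AT2G14220.1, the only entry with all 3 marks, was at 1.94 FPKM in pold2 and 1.74 FPKM in WT, with H3K4me3 over 72.0% of the locus and H3K9me2 over 5.56%. Peaks of the 2 marks overlapped in 3 of the 6 entries that had both, by 875 bp on Sadhu4-2, 105 bp on AT2G14220.1 and 18 bp on AT1G43886.1. No entry with both H3K4me3 and H3K9me2 was called, against 12.4% of all rows. Their 6 unadjusted p values in the authors' deposited table were all above 0.05, while 24% of all rows were under it. With 6 entries this is only a description. Across all 41 entries the WT FPKM and the percent of the locus under H3K9me2 had a Spearman correlation of -0.07. This describes loci from 1 ChIP library and 1 pooled RNA value.

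AT3G42090.1 (chromosome 3, 14274222 to 14274699) had the highest WT level of the 41 entries. It is listed at 0 in pold2 and at 1573 FPKM in WT, with p = 0.0288 and q = 0.145 in the authors' deposited table. In WT 68 rows of the table were higher. Its locus of 478 bp is the shortest of the 41, and it lies inside an H3K9me2 peak of 12506 bp. A 0 here can be a failed estimate, and no fold is given. The table has 17 rows listed at 0 in a genotype, and 2 others exceed AT3G42090.1 in the opposite genotype. These are AT3G45851, at 8095 FPKM in pold2 and 0 in WT, and AT4G39361, at 2571 FPKM in pold2 and 0 in WT, and neither was called in the authors' deposited table.

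Besides the entries that rose and SADHU5-1, H3K27me3 lay on AT3G21020.1, AT2G14220.1 and AT1G47860.1. AT3G21020.1 (chromosome 3, 7368267 to 7369526) lies inside an H3K27me3 peak of 12060 bp and was at 2.23 FPKM in pold2 and 1.59 FPKM in WT (1.40-fold, q = 0.1195 in the authors' deposited table). Of the 7 entries with H3K27me3, 6 (85.7%) had the higher value in pold2, against 61.6% of all rows with the mark, and 3 passed the authors' q. Among the 6, AT3G50625.1 is in the table through its pold2 value alone. The table's rows with this mark were called in 23.8% of cases in either direction.

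Of the entries without a family, 14 had H3K4me3 as the only mark, with a median of 2.38 FPKM in pold2 and 2.46 FPKM in WT. None was called by q, against 10.9% of all rows with H3K4me3, and 8 were higher and 6 lower in value. The most expressed was AT3G44215.1, at 13.3 FPKM in pold2 and 11.8 FPKM in WT. AT5G20880.1 was at 4.83 FPKM in pold2 and 4.85 FPKM in WT, AT2G15160.1 at 4.58 in pold2 and 4.94 in WT, and AT1G47565.1 at 4.44 in pold2 and 3.68 in WT. The H3K4me3 peak counted for AT2G15160.1 lay outside its locus. AT5G04235.1 was at 3.73 FPKM in pold2 and 3.20 FPKM in WT. None of these 5 differed by more than 1.21-fold.

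The next 5 lay between 2 and 3 FPKM. AT1G45120.1 was at 2.56 FPKM in pold2 and 2.39 FPKM in WT, AT5G50315.1 at 2.45 in pold2 and 2.44 in WT, and AT2G11140.1 at 2.31 in pold2 and 2.25 in WT. The locus of AT5G50315.1 is shared with ELO3 (AT5G50320), at 13.9 FPKM in pold2 and 15.0 FPKM in WT. AT5G35575.1 was at 2.31 FPKM in pold2 and 2.79 FPKM in WT, and AT1G42852.1 at 2.05 in pold2 and 2.48 in WT. AT1G64250.1 was at 1.75 FPKM in pold2 and 1.29 FPKM in WT, and its p of 0.0109 gave a q of 0.0754 in the authors' deposited table, the smallest among entries that were not called. The remaining 3 were under 1 FPKM. AT1G47520.1 was at 0.600 FPKM in pold2 and 0.826 FPKM in WT (p = 0.0198 and q = 0.113 in the authors' deposited table). AT1G73445.1 was at 0.384 FPKM in pold2 and 0.547 FPKM in WT (1.42-fold lower, q = 0.799 in the authors' deposited table). It is listed through its WT value alone, so it had to be lower in pold2. AT1G62890.1 was at 0.568 FPKM in pold2 and 0.231 FPKM in WT, and its 2.46-fold difference was not called (q = 0.643 in the authors' deposited table). It is listed through its pold2 value alone, so it had to be higher there. AT1G73445.1 and AT1G62890.1 also each share a locus with a more expressed protein-coding gene.

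No mark was found on 3 entries. AT4G13120.1 was at 3.54 FPKM in pold2 and 3.55 FPKM in WT, AT5G27902.1 at 1.05 in pold2 and 0.946 in WT, and AT4G20730.1 at 0.385 in pold2 and 0.537 in WT (1.39-fold lower, q = 0.294 in the authors' deposited table). AT4G20730.1 is listed through its WT value alone, so it had to be lower in pold2. None of the 3 entries was called, against 12.4% of all rows.

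Of the 41 entries, 9 shared a locus with another row (22.0%, against 14.2% of all rows), and without strand or a stated rule for shared reads their values cannot be separated from those of the partner. For 3 of the 9 the partner is the plain identifier of the same gene, and for 6 it is a protein-coding gene. Peaks in those 6 loci likewise cannot be assigned to the entry alone. Of the 9, 8 were counted with H3K4me3, 2 with H3K9me2 and 1 with H3K27me3. MUG4 differed most between its rows, at 12.6 FPKM in pold2 and 13.1 FPKM in WT for AT5G16505.2, and 1.40 FPKM in pold2 and 1.92 FPKM in WT for AT5G16505. Transposon-derived sequences also have similar copies elsewhere, and the treatment of reads that match several copies is not given in the sources used here.

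The entries lay in sparser surroundings than the average row. Within 100 kb on both sides they had a median of 25 other rows, against 42 over the table, and a median of 7.54% of that window was under WT H3K9me2 peaks, against 0.760%. Chromosome 1 held 15 of the 41, and the other chromosomes 4 to 9. At most 10 rows were near 7 entries, AT1G42110.1, AT1G42852.1, AT1G43886.1, AT2G11140.1, AT3G42090.1, SADHU1-3 and MUG8, whose windows were 24.7 to 57.0% H3K9me2. None of these 7 was called, against 14.6% of the 308 rows of the table with at most 10 rows nearby. Of the 7, 3 carried no H3K9me2 themselves, and MUG8, with 2 rows nearby and 53.3% of its window under H3K9me2, was at 11.9 FPKM in pold2 and 10.98 FPKM in WT. The 3 entries that rose had 32 to 45 rows nearby and 0.858 to 3.48% of the window under H3K9me2. Among the 41 the number of nearby rows and the share of H3K9me2 had a Spearman correlation of -0.90, a description of loci that share 1 genome map and 1 ChIP library.

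**Figure D5:**
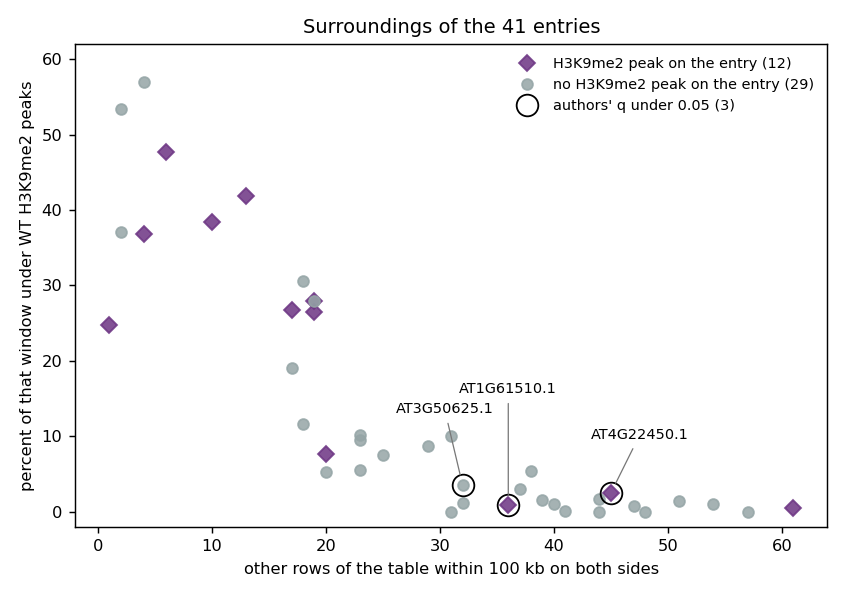
Other rows of the table within 100 kb on both sides of each entry, against the percent of that window under WT H3K9me2 peaks, with diamonds for the 12 entries that carry H3K9me2 and circles for the other 29. The 3 ringed entries at the authors' q under 0.05 lie low and to the right, at 0.858 to 3.48%, and the 7 entries with at most 10 nearby rows lie at 24.7% and above.

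All 27 genes of a list for DNA methylation and transposon silencing had a row, and 4 rose and 1 fell by q in the authors' deposited table (18.5%, against 12.4% of all rows), with a median log2 ratio of 0.12. The higher genes were MET1 (1.27-fold), the histone demethylase gene IBM1 (1.29-fold), the DNA demethylase gene ROS1 (1.21-fold), and the chromatin assembly gene FAS1 (1.26-fold), and the lower gene was CMT2, at 19.8 FPKM in pold2 and 26.0 FPKM in WT. DDM1 was at 15.7 FPKM in pold2 and 13.1 FPKM in WT and was not called (q = 0.0756 in the authors' deposited table). Whether these values bear on the entries was not tested.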

How the data were processed

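The submitters' processing notes name TopHat2 2.1.1, Cuffdiff 2.1.1 and Bowtie 0.12.9 among the tools, with no role, and TAIR10. The authors' FPKM table holds a single pooled value for each genotype, per the file headers. The log2 fold change, p-value and q-value are those of the authors' deposited table, and its log2 ratio is pold2 over WT. With 1 value per genotype no test across libraries was possible, so a row was called at the authors' q under 0.05, and no set test was made. The smallest p is 5e-05. Ratios, medians and folds were recomputed from the FPKM values with pandas 2.3.3. Peaks carry a score that the authors deposited, on a scale not given in the sources used here, used only as a rank within a list.

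Loci carry no strand. Their starts were raised by 1 to count from 1, which matched the reference gene's start in 38 of 41 entries, and the peak starts likewise. A row was marked where a peak shared at least 1 bp with its locus, or for H3K4me3 with the locus and 500 bp on both sides. Named were all 41 entries, POLD2, rows beside called entries, locus partners and members of fixed lists. AT3G45851 and AT4G39361 were chosen after their values were seen. The pair of H3K27me3 with no H3K4me3 was chosen after the calls were seen. Members and lists were chosen with earlier results of these data known. The overlap counts were tested on simulated data. Alternatives were a q under 0.01, a 2-fold minimum, a mean of at least 1 FPKM, pseudocounts of 0.1 and 1, centring, and other peak and overlap rules. Bisulfite, H3, input and pold2 ChIP libraries were not analysed here.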

Additional observations from a re-analysis of the deposited data

How the results depend on the processing

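No paired analysis was possible because the table holds 1 pooled value per genotype, and for the same reason no library could be left out. The 3 calls stayed at 3 with a q under 0.01 and became 2 with a 2-fold minimum, with a mean of at least 1 FPKM, or among the 32 entries with a locus of their own (chosen after seeing the data). At the authors' unadjusted p under 0.05 they were 11. The median log2 ratio of 0.079 stayed above 0, at 0.072 with pseudocount 0.1, 0.041 with pseudocount 1, 0.085 with centring, and 0.088 with a mean of at least 1 FPKM or with own loci. Centring turned the sign of 3 of the 40 finite ratios, none of a called entry. The median WT level of 2.27 FPKM became 3.13 with a mean of at least 1 FPKM and 2.00 with own loci. Among the better-scoring 50% of peaks, 3 entries kept H3K27me3 (8.77% of all rows), 0 of them among those that rose, and 16 H3K4me3 (54.7%), against 7 and 30 in the report. With at least 50% of the locus covered, 3 had H3K27me3 (11.7% of all rows) and 8 H3K4me3 (37.5%). With the locus alone, 27 had H3K4me3 (83.8% of all rows). H3K9me2 lay on 8 to 13 entries under each alternative tried. The causes of these shifts were not tested beyond the smaller sets themselves. Pooling and unknown depth leave no error for a single entry.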
